A study of Mus musculus with 6 samples.

Results

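The genes described here encode the machinery of oxidative phosphorylation, measured in mouse colon with and without an intact Setd2 gene. They were chosen by gene symbol: all genes on the array whose symbol starts with Nduf, Uqcr, Atp5 or Cox4 to Cox8, together with Sdha, Sdhb, Sdhc and Sdhd. The rule found 87 of the 19057 named genes. Grouped by symbol, 35 of these fall under complex I, 4 under complex II, 7 under complex III, 16 under complex IV and 16 under complex V. This grouping counts Ndufa4 under complex I and Cox7a2l under complex IV. A further 8 are assembly factors of complex I (the Ndufaf genes), and 1 is a pseudogene, Ndufs5-ps. The rule used no measured value to choose genes, but where a gene had several probes, the one with the highest average log2 signal across the 6 arrays stands for it.

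Colon RNA from C57BL/6 mice aged 6 weeks was hybridised to Illumina bead arrays, 1 array per sample. There were 3 control samples and 3 knockout (KO) samples, and the series title names Setd2, which encodes the enzyme that trimethylates histone H3 at lysine 36, as the gene disrupted. The labels do not say how the deletion was made, whether it was limited to a cell type, or what the controls carried. They call the samples replicates without saying that each came from its own animal, so p-values measure only the spread between these samples, which may be technical. RNA was taken from whole colon tissue, where fewer cells of a type and less RNA per cell cannot be told apart.

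Mitochondria make ATP by passing electrons along a chain of protein complexes in their inner membrane. Complex I takes electrons from NADH and complex II takes them from succinate; both hand them to ubiquinone, complex III passes them to cytochrome c, and complex IV passes them to oxygen. Complexes I, III and IV pump protons, and complex V, the ATP synthase, uses the proton flow back to make ATP. Most subunits are encoded in the nucleus and the rest in mitochondrial DNA. In the colon, absorptive cells are known for oxidising butyrate made by gut bacteria through this chain.

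Nuclear genes for these complexes are known to carry binding motifs of NRF1, of the ETS factor GABP and of YY1 near their start sites. RefSeq promoter windows (build GRCm38.p6, 250 bases before to 50 bases after the start) were at hand for 72 of the 87 genes. Both strands were searched for the NRF1 motif (the capitals in the stretches below, with any base as the sixth letter), for the ETS letters CCGGAAG and for the YY1 motif that starts with AAGATGG. Matches of different motifs were allowed to overlap. The NRF1 letters occurred in 18 of the 72 genes (25%), against 7.84% of the 15207 named array genes with a window. The ETS letters also occurred in 18 genes (25%), against 13.8%. The YY1 letters occurred in 5 genes (6.94%), against 1.14%. At least 1 of the 3 motifs was present in 35 of the 72 genes. The same share was not counted over the array genes, so this number has no background beside it. A match describes letters and is neither a bound site nor a cause. The stretches below show the NRF1 match in genes from 4 of the complexes, read on the gene's strand, with the NRF1 letters in capitals.
Ndufa11, complex I, chr17:56717682-56717761, plus strand: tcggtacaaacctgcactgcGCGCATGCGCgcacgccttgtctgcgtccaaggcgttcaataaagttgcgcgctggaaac
Sdha, complex II, chr13:74350241-74350358, minus strand: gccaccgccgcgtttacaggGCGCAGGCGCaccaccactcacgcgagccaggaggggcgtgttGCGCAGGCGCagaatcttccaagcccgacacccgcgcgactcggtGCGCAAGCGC
Sdhd, complex II, chr9:50603850-50603948, minus strand: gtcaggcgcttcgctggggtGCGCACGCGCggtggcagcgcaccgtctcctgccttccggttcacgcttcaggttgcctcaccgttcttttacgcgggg
Cox6a1, complex IV, chr5:115349021-115349140, minus strand: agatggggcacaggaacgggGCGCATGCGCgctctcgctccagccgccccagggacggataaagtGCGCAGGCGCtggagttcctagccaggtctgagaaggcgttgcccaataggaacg
Atp5g2, complex V, chr15:102671048-102671109, minus strand: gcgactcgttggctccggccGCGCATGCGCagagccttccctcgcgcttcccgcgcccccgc
Atp5k, complex V, chr5:108434400-108434469, minus strand: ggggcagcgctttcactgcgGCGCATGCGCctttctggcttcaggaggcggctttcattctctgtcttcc

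Values below are log2 of the deposited normalized intensity, in the order control 1, control 2, control 3, then KO 1, KO 2, KO 3. Differences are KO minus control on this log2 scale, so 1 unit is a doubling, and errors are limma's standard errors unless named as SDs. The lowest intensity is exactly 1 on every array, which is 0 on the log2 scale and is called the floor. Of the 87 genes, 83 passed the filter on dim features (mean log2 over 0.96). The 4 that did not were Cox6a2, Cox7b2, Cox8c and Ndufaf6, and 8 genes touched the floor on at least 1 array. Levels were high for most, with a mean log2 over 8 in 58 genes, from 5 to 8 in 17 genes and of 5 or less in 12 genes.

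The brightest Setd2 probe had intensities of 374, 600 and 329 in the controls and of 201, 119 and 146 in the KO samples. All KO arrays lay below all controls, with a log2 difference of -1.47 with an error of 0.44 (limma adjusted p = 0.786). The other 2 Setd2 probes were dim, with differences of -0.02 and -0.64, or -1.72 and -0.93 without control 2. Where the probes lie relative to the deletion is not known. The array labelled control 2 stood apart from the rest. Its correlation with the other arrays across all tested genes was 0.80 to 0.82, against 0.91 to 0.94 among the other 5, and 41.6% of its probes sat at the floor against 33.5% to 36.9%. Differences below are therefore given with all 6 arrays and, after "or", without it. Epithelial markers were above the filter for 9 of 9 genes, with a summed intensity of 25445 to 34428 over the arrays. Of the 5 small intestinal markers, Fabp2 was at the floor on all arrays and 4 passed the filter. The summed intensity of these markers was 8316 on KO 1 and 27.6 to 560 on the other 5 arrays.

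No gene of oxidative phosphorylation passed the adjusted threshold of 0.05 in limma, in either direction, among the 83 tested. The same held for all 18918 features, of which 0.0% passed in each direction. At an unadjusted p under 0.05 the count was also 0 of 83 genes in each direction, against 1.66% of all features higher and 2.64% lower, 4.3% in all, and the smallest p among the genes was 0.106 (Ndufaf5, limma adjusted p = 0.940). Without control 2 the counts were again 0 adjusted, with 0.0% of all features in each direction, and 0 unadjusted, against 2.55% of all features higher and 2.52% lower, 5.06% in all, with a smallest p of 0.157. The median difference over the 87 genes was -0.02, with 40 above 0 and 47 below, beside a median of -0.09 over all features. Without control 2 both medians were -0.00. The middle 50% of the genes then lay between -0.13 and 0.13.

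The data bound these differences only loosely. All 83 limma 95% intervals included 0, with a median half-width of 1.03 log2 units, and 11 of them lay wholly between -1 and 1. Without control 2 the median half-width was 0.80 and 54 intervals lay between -1 and 1, 47 of them among the 58 bright genes. For most of the brightly measured genes the 5 arrays thus left a halving or a doubling outside the interval, while smaller differences stayed within it. With 3 samples against 3, an exact permutation test of a single gene cannot give a 2-sided p below 0.1.

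**Figure D1:**
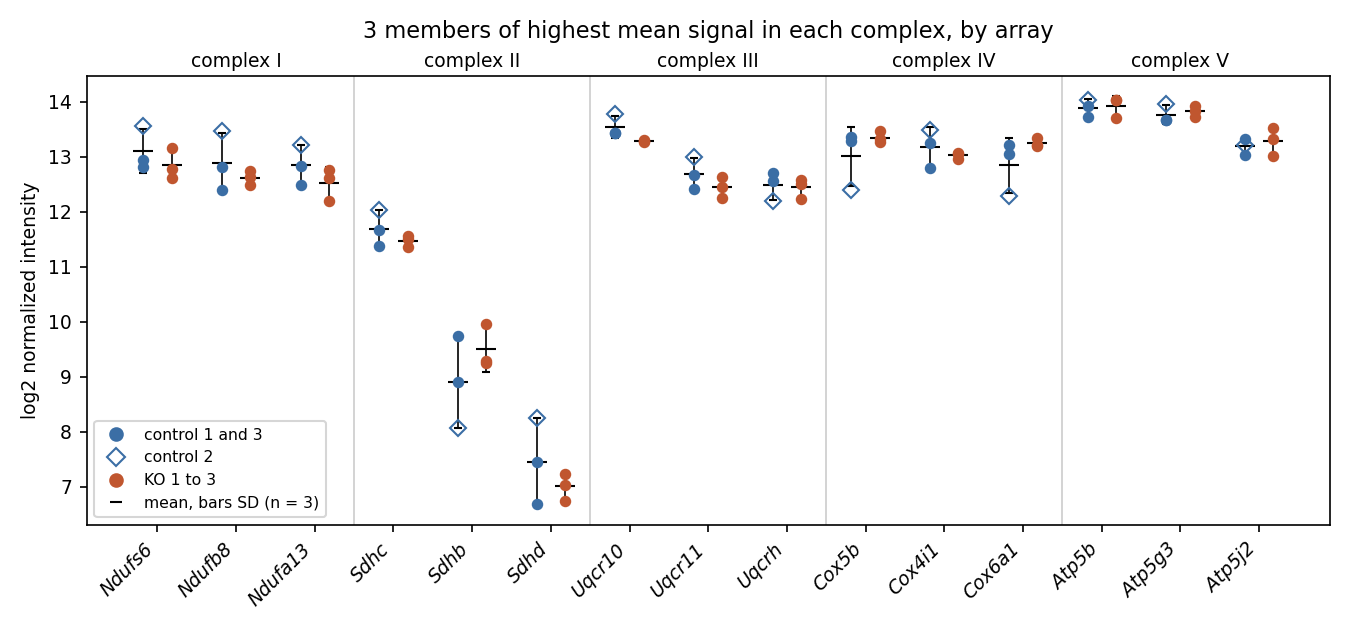
Log2 normalized intensity (vertical axis) of the 3 genes of highest mean signal in each complex (horizontal axis), for control and KO arrays; points are arrays, open diamonds are control 2, dashes are means and bars are SDs (n = 3). The KO points sit within or beside the range of the controls, and control 2 is the highest or lowest control in most columns.

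Complex I is an L-shaped enzyme whose core subunits carry the flavin and iron-sulfur clusters, while accessory subunits surround them. Its 35 genes had a median difference of -0.10, with 16 above 0 and 19 below, and a median of -0.02 without control 2. The 6 core genes had a median of 0.06, or -0.02 without control 2, and the 29 accessory genes -0.10, or -0.02. Ndufv1, the flavin subunit where NADH gives up its electrons, read 12.02, 12.41 and 12.03 in the controls and 12.32, 12.06 and 12.18 in the KO samples. The groups overlapped, and the difference was 0.03 with an error of 0.37 (limma adjusted p = 0.992). Without control 2 all 3 KO arrays of Ndufv1 lay above both controls, by a mean of 0.16. Ndufs7, a core subunit that holds the last iron-sulfur cluster before ubiquinone, read 11.56, 11.95 and 11.92 in the controls and 11.64, 11.54 and 11.71 in the KO samples, with overlap and a difference of -0.18, or -0.11 without control 2. For Ndufs3, also of the core, control 2 read 7.97 and the other arrays 9.96 to 10.20, and leaving control 2 out took the difference from 0.76 to 0.07. Ndufs1, the largest iron-sulfur subunit, was dim: it was at the floor on control 1, read 4.80 on control 2 and 3.33 on control 3, and 3.50, 2.79 and 2.42 in the KO samples.

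The 3 complex I genes of highest mean signal were Ndufs6, Ndufb8 and Ndufa13, all accessory subunits. Ndufs6 measured 12.81, 13.56 and 12.94 in the controls and 12.61, 12.77 and 13.16 in the KO samples, a difference of -0.26, or -0.02 without control 2. For Ndufb8 the values were 12.40, 13.47 and 12.82 against 12.64, 12.49 and 12.74, a difference of -0.28, or 0.01 without control 2. Ndufa13 gave 12.50, 13.22 and 12.83 against 12.20, 12.62 and 12.76, with differences of -0.32 and -0.14. In all 3 genes control 2 was the highest of the 6 arrays and the groups overlapped. Ndufa4, first assigned to complex I and now placed with complex IV, is counted here under complex I by its symbol. It read 11.18, 10.59 and 11.38 in the controls and 11.68, 11.60 and 11.12 in the KO samples. The difference was 0.42, or 0.19 without control 2, and here control 2 was the lowest array.

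Ndufs4 and Ndufb2 had the smallest p among complex I genes in the 2 directions. Ndufs4, an accessory subunit of the electron-input module whose loss causes Leigh-like disease in mice, read 10.05, 7.22 and 10.44 in the controls and 10.38, 10.71 and 10.21 in the KO samples. Its difference of 1.20 with an error of 0.88 (limma adjusted p = 0.940) rested on control 2, and was 0.19 without it. Ndufb2, a subunit of the membrane arm, read 5.76, 7.39 and 5.86 in the controls and 4.90, 5.21 and 5.72 in the KO samples. All 3 KO arrays lay below all 3 controls, with KO 3 just under control 1. The difference was -1.06 with an error of 0.57 (limma adjusted p = 0.940), or -0.53 without control 2. Its second probe was at the floor on all arrays but control 2. Ndufb9, also of the membrane arm, gave 7.12, 7.87 and 7.21 against 6.97, 6.95 and 6.84, differences of -0.48 and -0.25, again with no overlap. Ndufa5, a subunit of the matrix arm, went the other way, with 10.84, 9.84 and 10.68 against 10.90, 10.99 and 10.87. KO lay above control on all arrays, by 0.47, or 0.16 without control 2, while a dimmer Ndufa5 probe differed by -0.36, or -0.12.

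The assembly factors join complex I subunits but are not part of the finished enzyme. Their 8 genes had a median difference of -0.08 with and without control 2. Ndufaf5, a methyltransferase-like factor that hydroxylates an arginine of Ndufs7, had the smallest p of all 83 genes: 6.88, 7.98 and 7.14 in the controls and 6.10, 6.53 and 6.77 in the KO samples. All KO arrays lay below all controls, and the difference was -0.87 with an error of 0.46 (limma adjusted p = 0.940), or -0.54 with an interval of -1.44 to 0.35 without control 2. A second, dimmer Ndufaf5 probe gave -1.55, or -0.86 without control 2. Ndufaf7, an arginine methyltransferase, read 5.87, the floor and 5.95 in the controls and 6.20, 6.25 and 5.55 in the KO samples. Because control 2 was at the floor there, its difference of 2.06 is no fold change, and it was 0.09 without control 2. Ndufaf3 read 3.43, 6.02 and 3.35 in the controls and 3.14, 4.43 and 4.89 in the KO samples, a difference of -0.12, or 0.76 without control 2. The pseudogene Ndufs5-ps, whose probe may also take up Ndufs5 RNA, differed by 0.27, or 0.11.

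Complex II is the succinate dehydrogenase shared with the citric acid cycle, made of a flavoprotein, an iron-sulfur protein and a pair of membrane anchors. The median over its 4 genes was 0.16, or 0.06 without control 2, and turned to -0.33 without control 1. Sdhb, the iron-sulfur subunit, read 8.91, 8.08 and 9.74 in the controls and 9.25, 9.97 and 9.28 in the KO samples, a difference of 0.59 with an error of 0.55 (limma adjusted p = 0.940), or 0.17 without control 2. The anchor Sdhc gave 11.38, 12.04 and 11.67 against 11.57, 11.36 and 11.51, differences of -0.22 and -0.05. The anchor Sdhd gave 6.68, 8.25 and 7.45 against 6.75, 7.24 and 7.03, differences of -0.45 and -0.06. Groups overlapped in all 3 genes. For Sdha, the flavoprotein that oxidises succinate, the only probe was at the floor on control 1 and read 2.00 to 2.88 on the other arrays, so this subunit was barely measured. It still counts in the median of the complex, with differences of 0.54 and 0.74, and the positive sign of that median rests on it. Among the 3 other genes the middle value was that of Sdhc, -0.22, or -0.05 without control 2.

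Complex III carries electrons from ubiquinol to cytochrome c. Its 7 genes had a median difference of -0.24, with 2 above 0 and 5 below, which shrank to -0.09 without control 2. Uqcr10, a small subunit, had the highest mean signal of the complex: 13.44, 13.78 and 13.43 in the controls and 13.29, 13.28 and 13.31 in the KO samples. The KO arrays lay close together (SD 0.02) and all below the controls. The difference was -0.26 with an error of 0.36 (limma adjusted p = 0.942), or -0.14 without control 2. A second Uqcr10 probe of similar signal gave 13.45, 13.70 and 13.26 against 13.36, 13.31 and 13.27, with overlapping groups and differences of -0.16 and -0.04. Uqcr11 gave 12.41, 13.00 and 12.67 against 12.45, 12.26 and 12.64, and Uqcrh, the hinge protein, 12.56, 12.19 and 12.70 against 12.51, 12.58 and 12.24. Both overlapped, with differences of -0.24 and -0.04, or -0.09 and -0.19 without control 2. The core proteins Uqcrc1 and Uqcrc2 differed by 0.24 and 0.11, or 0.17 and 0.04 without control 2. Uqcrfs1, the Rieske iron-sulfur protein, was at the floor on control 2 and KO 3 and dim elsewhere, so its difference is not interpreted.

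Complex IV reduces oxygen to water, and several of its nuclear subunits exist as isoforms used in different tissues. The 16 genes had a median difference of -0.05, or 0.02 without control 2. The 9 ubiquitous isoforms had a median of -0.08, or 0.01, and ranged from -0.10 to 0.20 without control 2. Cox7a2l is counted among these 9. Cox5b read 13.29, 12.39 and 13.36 in the controls and 13.27, 13.47 and 13.32 in the KO samples, a difference of 0.34, or 0.03 without control 2. Cox4i1, the regulatory subunit that binds ATP, gave 12.80, 13.50 and 13.25 against 13.07, 12.97 and 13.05, differences of -0.15 and 0.01. Cox6a1 gave 13.23, 12.28 and 13.05 against 13.34, 13.21 and 13.23, differences of 0.40 and 0.12. Control 2 was the lowest array for Cox5b and Cox6a1 and the highest for Cox4i1, and the groups overlapped in all 3. For Cox7a2l, a factor that joins complexes III and IV into supercomplexes, control 2 read 6.24 while controls 1 and 3 read 10.07 and 9.99 and the KO arrays 10.72, 10.22 and 9.54. Its difference was 1.39 with an error of 1.08 (limma adjusted p = 0.940), and 0.13 without control 2.

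Among the isoform sets, Cox7a1, the heart and muscle form, read 9.66, 10.26 and 9.95 in the controls and 9.50, 10.38 and 9.91 in the KO samples, a difference of -0.03, or 0.12 without control 2. Its ubiquitous counterpart Cox7a2 gave 5.82, 7.73 and 6.30 against 5.65, 6.28 and 6.09, differences of -0.61 and -0.05. Both had overlapping groups. Smooth muscle markers were well measured in these whole-tissue samples. Their summed intensity was 21167, 36356 and 31560 in the controls and 26754, 35528 and 39801 in the KO samples. The 7 smooth muscle markers had a median difference of 0.16, with 6 above 0 and 1 below. Without control 2 the median was 0.65 and all 7 were above 0, from 0.26 to 0.81. In limma 0 of the 7 had an unadjusted p under 0.05, with or without control 2. The 3 striated muscle markers summed to 170, 689 and 529 in the controls and 68.8, 173 and 350 in the KO samples. Their differences were above 0 for 2 and below for 1, from -1.91 to 0.91. Of the 2 past the filter, 1 was lower at an unadjusted limma p under 0.05 with 6 arrays. Over all features that share was 2.64%. Without control 2 the count was 0. The part of the smooth and striated muscle markers in the Cox7a1 values was not tested. Cox8b, a heart and muscle form of Cox8, read 4.93, 6.87 and 5.20 in the controls and 4.02, 4.96 and 5.04 in the KO samples, differences of -0.99 with an error of 0.64 (limma adjusted p = 0.940) and of -0.39 without control 2. Cox6b2, the testis form, read 3.81, 7.01 and 5.18 against 3.90, 3.59 and 4.84, differences of -1.22 and -0.38. It was the 1 gene with an unadjusted p under 0.05 when control 1 was left out. Its ubiquitous partner Cox6b1 differed by -0.17, or -0.00. Cox7b differed by -0.54, or -0.10. Cox4i2 was dim, at 2.03 to 3.51, and Cox6a2, Cox7b2 and Cox8c were each at the floor on 4 of the 6 arrays. Cox8a, Atp5g1 and Ndufa4l2 were not analysed here.

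Complex V consists of the catalytic F1 head, a peripheral stalk that holds it, the rotating ring of subunit c and further membrane subunits. Its 16 genes had a median difference of 0.08 with 11 above 0 and 5 below, and of 0.08 without control 2 with 9 above and 7 below. Atp5b, the catalytic beta subunit, read 13.72, 14.03 and 13.92 in the controls and 14.03, 13.72 and 14.03 in the KO samples. On control 2, KO 1 and KO 3 its intensity was 16715, the highest value of any probe on every array, so these 3 values are at the ceiling of the normalized scale. The groups overlapped, and the difference between these capped values was 0.03, or 0.10 without control 2. Atp5e, the epsilon subunit of F1, gave 7.02, 8.90 and 7.24 against 6.50, 6.64 and 6.93, with all KO arrays below all controls. Its difference was -1.03 with an error of 0.59 (limma adjusted p = 0.940), or -0.44 without control 2. The 3 other F1 genes, Atp5a1, Atp5c1 and Atp5d, differed by -0.02, 0.33 and 0.23, or 0.06, 0.13 and 0.16 without control 2.

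In the peripheral stalk, Atp5pb (subunit b) had the largest difference of all 87 genes, 2.75 with an error of 1.98 (limma adjusted p = 0.940). Its values were 8.71, 1.68 and 9.44 in the controls and 9.48, 9.79 and 8.81 in the KO samples, so that control 2 alone was low. Without it the difference was 0.29, with an interval of -0.88 to 1.45. The other stalk genes Atp5h, Atp5j and Atp5o differed by 0.14, 0.55 and 0.09, or by -0.03, 0.11 and 0.22 without control 2. In the ring, Atp5g3 read 13.66, 13.97 and 13.68 in the controls and 13.83, 13.92 and 13.73 in the KO samples, a difference of 0.06, and Atp5g2 read 10.12, 8.83 and 10.05 against 9.95, 9.91 and 9.96, a difference of 0.27. Without control 2 the KO arrays lay above both controls for Atp5g3 and below both for Atp5g2, by 0.15 and -0.14. Of the membrane subunits, Atp5j2 gave 13.03, 13.23 and 13.32 against 13.01, 13.52 and 13.33, with overlap and a difference of 0.09, or 0.11 without control 2. Atp5k and Atp5md, subunits that help ATP synthase form dimers, differed by -0.72 and -0.77, or by -0.00 and -0.14 without control 2.

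**Figure D2:**
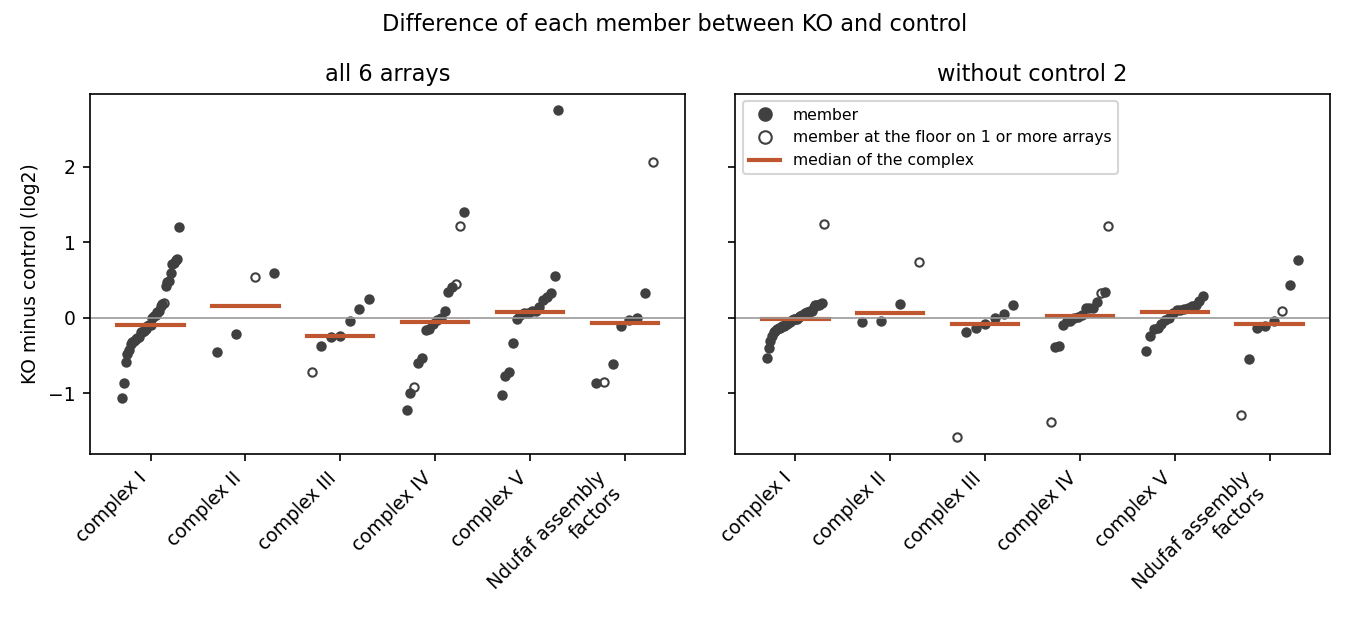
KO minus control on the log2 scale (vertical axis) for every gene, grouped by complex (horizontal axis), from all 6 arrays (left) and without control 2 (right); open points are genes at the floor on at least 1 array and orange lines are medians. The medians run from -0.24 (complex III) to 0.16 (complex II, with the barely measured Sdha) on the left and from -0.09 to 0.08 on the right. Most points on the right close in on 0.

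Groups that do not overlap were counted as a second description. With 6 arrays, KO lay wholly above control for 1 of the 83 genes (Ndufa5), where the share over all features was 3.38%. KO lay wholly below control for 5 genes (Atp5e, Ndufaf5, Ndufb2, Ndufb9 and Uqcr10), with 5.31% over all features. Together these were 7.23% of the genes, against 8.68% of all features. Without control 2 the count was 4 above, with 7.92% of all features, and 8 below, with 8.16%. Those 12 genes were 14.5% of the set, against 16.1% of all features. The shares were thus near the background and are no result about oxidative phosphorylation.

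Most of the variation among these genes lay in control 2. It was the highest or the lowest of the 6 arrays for 73 of the 87 genes, 42 times the highest and 31 times the lowest, which is 83.9% beside 65.3% of all features. For each other array that share was 10.3% to 33.3%. Among the 58 bright genes it was outside the other 5 for 50 (86.2%), beside 74.1% of bright features. Its distance from the mean of the others exceeded 1 log2 unit upward for 18 genes and downward for 16, together 39.1% of the genes beside 58.8% of all features. Many of those features were dimmer than these genes. Among the 58 bright genes the share was 24.1%, beside 27.8% of bright features. For a mean log2 from 5 to 8 it was 88.2% of the 17 genes, beside 51.8% of features of that signal. The median SD was accordingly 0.52 in the controls and 0.21 in the KO samples, while control 1 and control 3 differed by a median of 0.27. Over all features the median SDs were 0.89 and 0.48, or 0.45 and 0.25 among features with a mean log2 over 8 against 0.38 and 0.16 for the genes of that brightness. For a mean log2 from 5 to 8 the control SD went the other way, with a median of 0.91 over the 17 genes and 0.70 over all features of that signal.

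**Figure D3:**
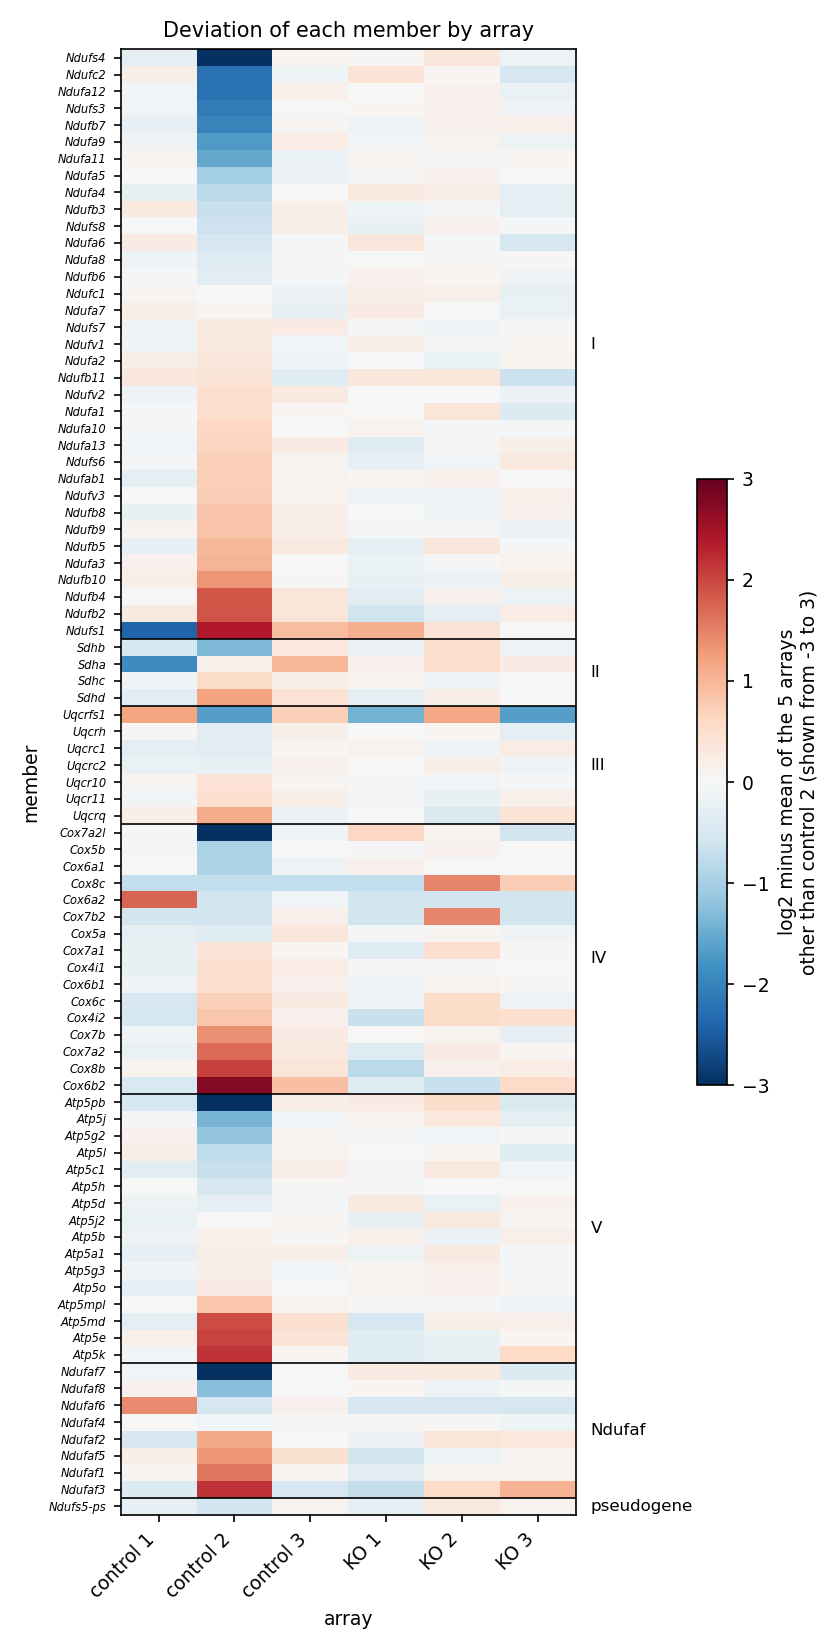
Log2 value of each of the 87 genes (rows, grouped by complex and sorted by control 2) on each array (columns), minus the mean of the 5 arrays other than control 2; red is above and blue below, cut at -3 and 3. Apart from dim genes such as Ndufs1, Sdha and Uqcrfs1, the strongest colours stand in the control 2 column, with genes above and below the other arrays.

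Control 2 was the highest array for most genes of intermediate signal. Of the 17 genes with a mean log2 from 5 to 8, it was the highest array for 15 and the lowest for 2, Atp5pb and Ndufb7. Over all features of that signal it was the highest for 47.3% and the lowest for 29.3%. Those 17 genes had a median KO minus control of -0.61 with 15 below 0, and -0.10 without control 2. All features of the same signal had medians of -0.10 and -0.00. KO 1 was the lowest array for 10 of the 17 (58.8%), beside 17.7% of all features of that signal. Among the 58 bright genes control 2 was the highest array for 22 and the lowest for 28, and among the 12 genes with a mean of 5 or less it was the highest for 5 and the lowest for 1. The 58 bright genes had a median difference of 0.06, or 0.02 without control 2, where every one of them lay between -0.5 and 0.5.

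Different probes of the same gene did not move together on control 2. Among the 24 genes with at least 2 probes of mean log2 over 5, the deviations of the 2 brightest probes on control 2 differed by more than 1 log2 unit for 11 (45.8%), and for 50.2% of the 1841 such genes on the whole array. On each other array this held for 1 to 4 of the 24. In 8 genes (Atp5j, Atp5pb, Cox6b1, Ndufa5, Ndufab1, Ndufb8, Ndufs4 and Ndufs6) control 2 was over 0.5 above the other arrays by one probe and over 0.5 below them by another. For Atp5pb, the first 2 probes read 1.68 and the floor on control 2, against 8.71 to 9.79 and 8.88 to 10.13 on the other arrays. The third Atp5pb probe read 6.91 on control 2 and 5.09 to 5.91 elsewhere. Cox6b1, a subunit facing the intermembrane space, read 13.46 on control 2 by its first probe, above 12.81 to 13.07 elsewhere, and 10.30 by its second, below 12.04 to 12.41. For Ndufab1, the mitochondrial acyl carrier protein, the first probe read 12.85 on control 2 and the third 7.41, against 11.84 to 12.29 and 9.91 to 10.88 elsewhere. Within the 24 genes, the KO minus control values of different probes spanned a median of 0.40 with 6 arrays and 0.13 without control 2. Where the probes lie along the transcripts was not analysed here.

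**Figure D4:**
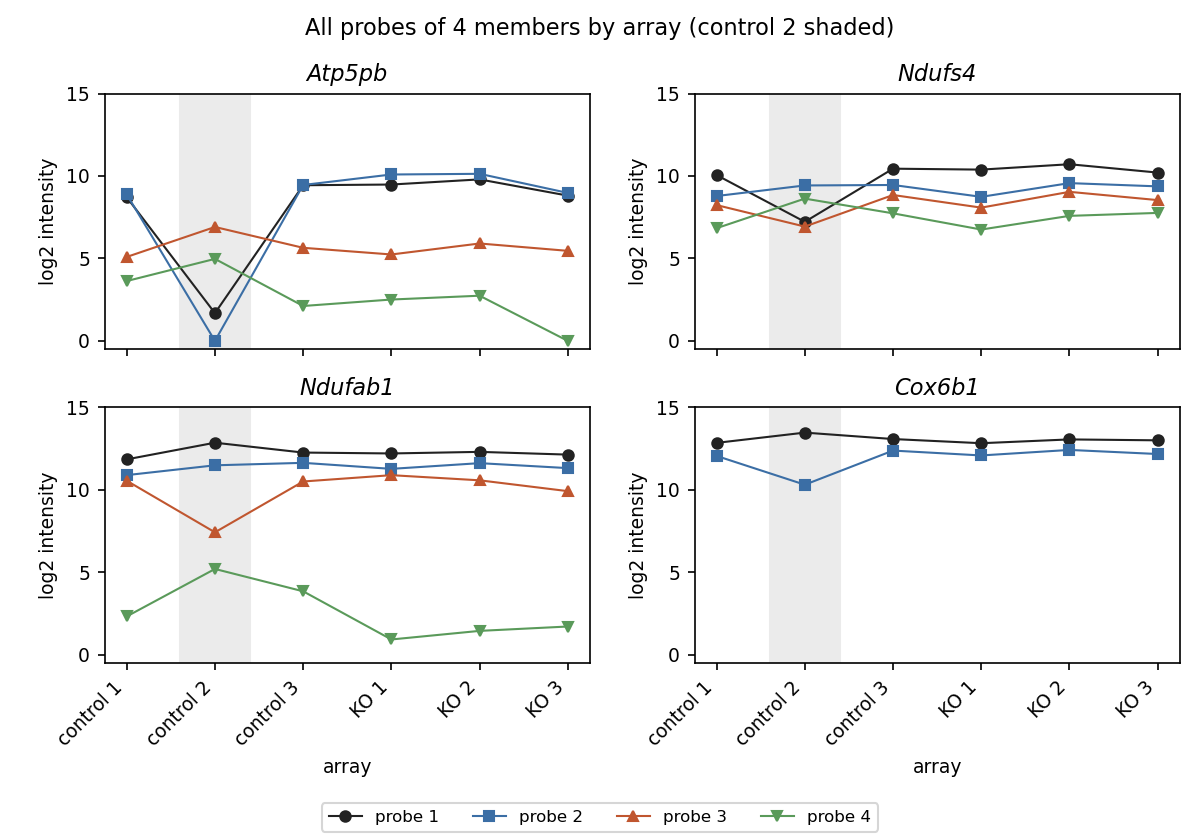
Log2 intensity (vertical axis) of every probe of Atp5pb, Ndufs4, Ndufab1 and Cox6b1 on each array (horizontal axis), with control 2 shaded; probe 1 has the highest mean. On control 2 probes of one gene part in opposite directions, as for Cox6b1 at 13.46 and 10.30.

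Differences were also set out by promoter motif. The 18 genes with the NRF1 letters had a median difference of 0.11, or 0.03 without control 2 with 9 above 0 and 9 below. The 54 without them had medians of -0.04 and -0.02. The 18 genes with the ETS letters had medians of 0.08 and -0.04, with 6 above 0 and 12 below without control 2, where the 54 genes without them had 28 above and 26 below. The 5 genes with the YY1 letters had medians of 0.32 and -0.10, with 1 above 0 and 4 below without control 2. For the genes printed above, differences without control 2 were 0.09 for Ndufa11, -0.06 for Sdhd, 0.12 for Cox6a1, -0.14 for Atp5g2 and -0.00 for Atp5k, while Sdha was too dim to compare. The factor gene Nrf1 itself read 8.41, 9.23 and 7.79 in the controls and 8.45, 7.70 and 8.23 in the KO samples, with overlap and a difference of -0.35, or 0.03 without control 2. Gabpa, the DNA-binding subunit of GABP, differed by -0.37, or -0.25.

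Other mitochondrial gene lists were set beside these genes, and 0 genes of any list had an unadjusted p under 0.05 with 6 arrays. The 8 subunits encoded in mitochondrial DNA, which pair with the nuclear subunits in complexes I, III, IV and V, had a median difference of 0.19, or -0.02 without control 2. CYTB, the mitochondrial subunit of complex III, read 13.50, 13.47 and 13.69 in the controls and 13.66, 13.65 and 13.46 in the KO samples, a difference of 0.04, or -0.01 without control 2. COX2, which carries a copper centre of complex IV, read 10.70, 10.17 and 11.34 against 10.94, 11.17 and 11.01, a difference of 0.31, or 0.02. ND6, a membrane subunit of complex I, read 4.89, 5.40 and 4.91 against 4.86, 4.47 and 4.60, with no overlap and a difference of -0.42, or -0.25. ATP6 read 11.19, 10.75 and 11.73 against 11.77, 11.56 and 11.25, with overlap and a difference of 0.30, or 0.06. ND6 and ATP6 had the smallest p of this list. Of the 36 other assembly factors, 33 passed the filter and their median was -0.01, or 0.09 without control 2. Acad9, a complex I assembly factor, and Sdhaf3, one of complex II, had the smallest p, with differences of 1.60 and 1.21, or 0.77 and 0.63 without control 2. Coa7, a complex IV assembly factor, differed by 0.48, or by 0.96 without control 2, where it was the 1 gene of its list with an unadjusted p under 0.05 (limma adjusted p = 0.934).

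The 24 electron carriers and exchangers had a median of 0.27, or 0.14 without control 2. Coq9, needed to make ubiquinone, and Etfdh, which feeds electrons from fat oxidation to it, had the smallest p, with differences of 1.08 and 1.46, or 0.14 and 0.15 without control 2. Cyc1, the cytochrome of complex III that the symbol rule leaves out, read 11.14, 7.77 and 11.37 in the controls and 11.36, 11.41 and 11.08 in the KO samples. Control 2 alone was low, and the difference of 1.19 became 0.04 without it. The citric acid cycle list of 17 genes, in which pyruvate dehydrogenase genes were also counted, had a median of 0.34, or 0.13. Dlat, a pyruvate dehydrogenase subunit, gave 6.03, 5.84 and 5.76 against 6.60, 6.60 and 6.23, with KO above control on all arrays and differences of 0.60 and 0.58 (limma adjusted p = 0.940). Pdhb, of the same enzyme, was at the floor on control 2 and differed by 0.37 without it. The 21 regulators of mitochondrial biogenesis had a median of 0.06, or -0.10. Ppargc1b, a coactivator of mitochondrial genes, gave 9.06, 9.33 and 9.48 against 9.90, 9.71 and 9.81, also without overlap, with differences of 0.52 and 0.53 (limma adjusted p = 0.940). Lrpprc, which stabilises mitochondrial mRNA, differed by 1.58, or 0.34 without control 2. The 76 mitochondrial ribosome genes had a median of -0.07, or -0.04, and the pair of smallest p, Mrpl33 and Mrpl39, differed by -0.88 and -1.77, or -0.40 and -1.05.

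**Figure D5:**
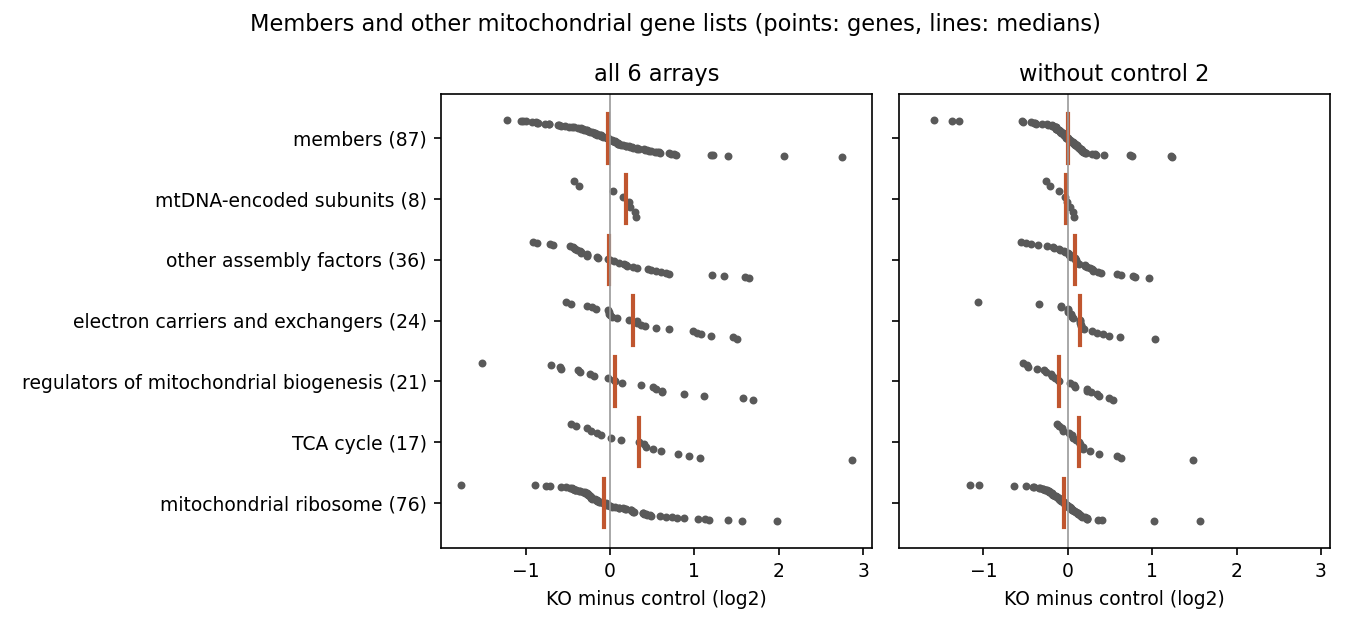
KO minus control on the log2 scale (horizontal axis) for the 87 oxidative phosphorylation genes and 6 other mitochondrial gene lists (rows, number of genes in brackets), from all 6 arrays (left) and without control 2 (right); points are genes and orange lines are medians. All medians lie between -0.07 and 0.34 on the left and between -0.10 and 0.14 on the right.

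Marker genes of absorptive colonocytes varied widely between arrays. Their 4 genes (Aqp8, Car1, Car4 and Slc26a3) summed to intensities of 6879, 1234 and 16249 in the controls and 18918, 23090 and 14986 in the KO samples, with overlapping groups. Control 2 was the lowest array by this sum. The median log2 over the 4 genes did not overlap, at 10.07, 8.38 and 10.15 in the controls and 11.88, 12.18 and 10.95 in the KO samples. KO minus control was above 0 for all 4 genes, and its median was 1.81, or 1.14 without control 2. Within each single gene the groups overlapped. By limma 0 of the 4 had an unadjusted p under 0.05, with or without control 2. Small intestinal markers summed to 8316 on KO 1 and to 27.6 to 560 on the other 5 arrays. The part of these markers in the values above was not tested.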

How the data were processed

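The values are linear probe intensities as deposited, for 45281 probes on each of 6 arrays. The arrays have the same median (3.82) and the same maximum (16715), a mark of quantile normalization, so a shift shared by most genes would not show. Per the labels, RNA was extracted with Trizol, cleaned on columns and amplified into biotinylated cRNA. The sources used here do not give the software or the background correction. A table of unnormalized values was not used, because its 12 columns match no sample label; a planned background-corrected alternative was therefore not run.

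Intensities were log2 transformed without an offset. Probes were named through GEO's platform annotation (34885 with 1 symbol, 18 with several, 10378 with none). Each gene was represented by its probe of highest mean over the 6 arrays, and features above the 40th percentile of the mean were kept, 18918 in all. The difference between KO and control was tested with lmFit and eBayes of limma 3.58.1 under R 4.3.3, 2-sided. P-values were adjusted by Benjamini-Hochberg across the 18918 features, and 0.05 was the threshold. The procedure was tested on simulated data. These gave every array of a gene the same normal spread, without a floor and without an array that stands apart like control 2. The number of arrays limits the precision. Medians over a complex are descriptions without a test. All 87 genes were found in RefSeq by Entrez identifier, and promoter sequences are RefSeq's (GRCm38.p6).

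Genes named in the text by rule are Setd2, the 3 of highest mean signal per complex and the 4 of smallest p per direction. The rule also takes those with control 2 farthest below and above the other arrays, isoform sets, and the 2 of smallest p in each other list. Genes outside the rule (such as Ndufv1, Ndufs3, Ndufs7, Ndufa5, Ndufb9, Cyc1, CYTB, COX2, Nrf1, Gabpa, Coa7 and those described by their role or by several probes) were chosen after their values were seen. The genes and lists were chosen with earlier results of these data known. The labels do not state that replicate numbers pair the samples. Deviations of same-numbered samples from their group means correlated at 0.16, -0.09 and 0.04 across genes. For samples of different number the range was -0.21 to 0.13. With 3 samples per group and control 2 standing apart, these values cannot decide whether samples were paired.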

Additional observations from a re-analysis of the deposited data

How the results depend on the processing

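In limma, 0 of the oxidative phosphorylation genes passed the adjusted threshold under all 14 alternatives run. At an unadjusted p under 0.05 the count was 1 with an offset of 16 (Ndufaf5, lower in KO) and 1 without control 1 (Cox6b2, lower), and 0 otherwise. Leaving out 1 array at a time moved that count between 0 and 1. Over all features, 11 passed the adjusted threshold with no filter on dim features. The unadjusted count of 814 became 202 with the filter at the 70th percentile, 467 with an offset of 16 and 674 to 1309 with 1 array left out, highest without control 3. With 1 array left out, the median difference ranged from -0.14 to 0.04 over all the genes, from -0.12 to 0.04 in complex I, from -0.33 (without control 1) to 0.39 in complex II, from -0.25 to -0.09 in complex III (-0.087 without control 2), from -0.27 to 0.07 in complex IV and from 0.01 to 0.12 in complex V. The Setd2 difference was -0.71 as the mean of all its probes and -1.67 to -1.21 with 1 array left out. With the replicate number as a block, the unadjusted count over all features was 840, the count among the genes 0 and the Setd2 difference -1.47, and no call changed. Of the 504 values of 36 named genes under these alternatives, 3 moved by more than 1 SD, and that SD is set largely by control 2. The causes of these changes were not tested. The 3 arrays per group and the signal near the floor limit what can be seen for Sdha, Uqcrfs1, Ndufs1, Cox6a2, Cox7b2, Cox8c and Ndufaf6.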
